A study of Mus musculus with 2 samples.

Results

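The genes described here encode the ATP-sensitive potassium (KATP) channels of the heart and its vessels: Kcnj8 (pore subunit Kir6.1), Abcc9 (regulatory sulfonylurea receptor SUR2), Kcnj11 (pore subunit Kir6.2) and Abcc8 (regulatory subunit SUR1). The 4 members were taken by symbol, 1 row each, from the 31053 genes in the deposited tables. The study profiled cells of intact mouse hearts by droplet-based 3' single-cell RNA-seq at postnatal day 1 (P1) and postnatal day 7 (P7). There was 1 library per age, each made from 3 hearts of 1 litter pooled together and sorted for live cells by 7-AAD exclusion. No treatment, injury or strain is named in the sample labels, and collagenase digestion took 20 min at P1 and 45 min at P7. With 1 library per age, P1 and P7 could not be tested against each other, and each interval given is a 95% interval that covers counting error only.

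A KATP channel joins inward rectifier pore subunits to an equal number of sulfonylurea receptors. It opens when the ATP to ADP ratio of the cell falls, and potassium leaving through it hyperpolarises the membrane. In vascular mural cells the Kcnj8 and Abcc9 products form the channel that vasodilators open through cAMP and protein kinase A and that vasoconstrictors close through protein kinase C. Ventricular myocytes use the Kcnj11 and Abcc9 products, mouse atrial myocytes and pancreatic beta cells the Kcnj11 and Abcc8 products. Gain-of-function variants of the human KCNJ8 and ABCC9 genes cause Cantu syndrome, in which vessels dilate and the heart enlarges.

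The members form tandem pairs in the genome, each with the regulatory gene upstream of the pore gene on the same strand (GRCm38, GENCODE M21). Kcnj8 (ENSMUSG00000030247) lies at chr6:142564837-142571614 on the minus strand, and Abcc9 (ENSMUSG00000030249) at chr6:142587862-142702315 on the same strand, 16247 bases apart. Kcnj11 (ENSMUSG00000096146) at chr7:46093953-46100764 and Abcc8 (ENSMUSG00000040136) at chr7:46104523-46180033 are 3758 bases apart, also on the minus strand. Exons of Abcc9 overlap those of the antisense gene 5330439B14Rik, which had 1 UMI among kept cells at P1 and 0 at P7. Abcc9 has 6 annotated transcripts, and gene-level 3' UMI counts do not separate its SUR2A and SUR2B forms.

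The Kcnj8 and Abcc9 promoters are shown because these neighbours shared their main cell class. The lines below give the 250 bases before each RefSeq start site (GRCm38.p6, minus strand, read 5' to 3'), at chr6:142571615-142571864 for Kcnj8 and chr6:142702275-142702524 for Abcc9. Capitals mark the motif TGGGAA, the core that the Notch effector RBPJ recognises.
Kcnj8 promoter: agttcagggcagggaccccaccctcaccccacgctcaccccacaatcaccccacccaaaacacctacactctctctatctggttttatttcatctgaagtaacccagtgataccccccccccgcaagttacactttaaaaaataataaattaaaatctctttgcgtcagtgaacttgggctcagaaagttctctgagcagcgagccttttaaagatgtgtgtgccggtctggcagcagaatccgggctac
Abcc9 promoter: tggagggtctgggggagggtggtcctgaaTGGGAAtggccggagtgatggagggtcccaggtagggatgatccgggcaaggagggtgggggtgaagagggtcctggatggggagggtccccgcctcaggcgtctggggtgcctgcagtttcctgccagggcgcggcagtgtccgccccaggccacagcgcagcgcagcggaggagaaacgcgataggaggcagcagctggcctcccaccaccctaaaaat
The Abcc9 window had 1 TGGGAA match, and 21.6% of the 32851 RefSeq mouse promoters of this length held one on either strand. It also had 1 match on the minus strand to GGGCGG, the GC box of SP factors, found in 32.7% of promoters. Neither window matched TATAAA (12.4% of promoters), the MEF2-type motif CTANNNNTA (19.0%), the hypoxia response core ACGTG (16.6%) or the forkhead motif TGTTTAC (3.17%). The GC content of the Kcnj8 window was 49.2% and that of the Abcc9 window 66.8%. The GENCODE start of Abcc9 lies 41 bases upstream of the RefSeq one, inside the window printed.

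Cells were kept when they had 200 to 8000 detected genes and at most 20% mitochondrial UMIs (unique molecular identifiers, 1 per captured RNA molecule). This left 4991 of 7836 barcodes at P1 (median 10875 UMIs) and 8511 of 9077 at P7 (median 10104 UMIs). Classes were gated by genes other than the members. The pericyte gate asked for a UMI in at least 2 of the 3 genes Colec11, Vtn and Higd1b, and the Myh11 gate (smooth muscle) for at least 3 Myh11 UMIs. It held 146 and 311 cells at P1 and P7, the Myh11 gate 84 and 257, and 34 and 133 cells met both mural gates and no other. A check marker passed when it was at least 2-fold over all other kept cells and in at least 10% of the cells of its class. All 7 pericyte check markers (among them Rgs5, Pdgfrb and Notch3) and all 7 smooth muscle check markers (among them Acta2, Tagln and Cnn1) passed in their own class in both libraries. This rule does not set the pericyte and Myh11 gates against each other. Of the single-gate classes, the Myh11 gate was highest for Notch3 at both ages and for Cspg4 at P1, and the myocyte gate for Des and Pln. Rgs5 was still at 1518 and 2602 CPM in the Myh11 gate at P1 and P7. The Cdh5 gate (endothelium) held 1607 and 3171 cells, the Pdgfra gate (fibroblasts) 1018 and 1978, the Tnnt2-based myocyte gate 109 and 19, the Ptprc gate (leukocytes) 324 and 457, and the Upk3b gate (epicardium) 48 and 27. In these classes 5 to 8 independent markers were checked, and at P7 1 endothelial and 1 myocyte marker did not pass. Xist had 57336 UMIs at P1 and 12 at P7, while 4 Y-linked genes had 2 and 18039, so sex and digestion time changed together with age and cannot be told apart from it. A total of 18 barcodes occurred in both libraries, none of them in a pericyte-gated cell.

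Kcnj8 and Abcc9 were highest in pericyte-gated cells at both ages. Summed Kcnj8 UMIs there reached 1351 CPM (counts per 1e6 UMIs of the class) at P1 (1291 to 1413; 1931 UMIs) and 1722 CPM at P7 (1670 to 1775; 4183 UMIs). Abcc9 reached 596 CPM at P1 (557 to 637; 852 UMIs) and 769 CPM at P7 (734 to 804; 1867 UMIs). Pericyte-gated cells thus supplied 58.9% of all Kcnj8 UMIs at P1 and 74.7% at P7, and 44.6% and 54.6% of all Abcc9 UMIs, although they held 2.42% and 2.49% of all UMIs. With all 3 gate genes required, these shares of the members' UMIs were 37.2% and 65.6% for Kcnj8 and 27.7% and 47.3% for Abcc9. The plot of levels by class sets these values beside the other classes.

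**Figure D1:**
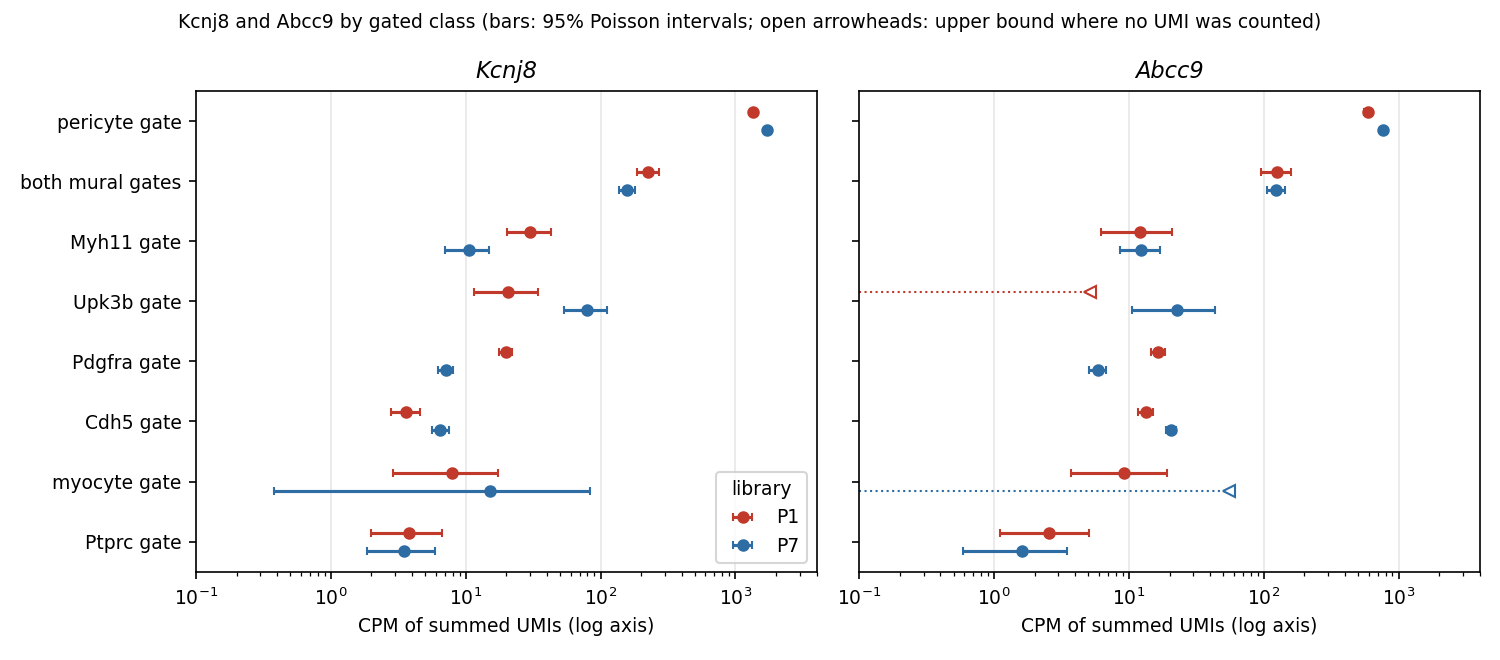
Kcnj8 and Abcc9 levels (CPM of summed UMIs, log axis) in 8 gated classes, P1 in red and P7 in blue, with 95% Poisson intervals, and open arrowheads at the upper bound where no UMI was counted. Both genes are highest in pericyte-gated cells (Kcnj8 1351 and 1722 CPM, Abcc9 596 and 769 CPM) and fall through the cells of both mural gates to the Myh11 gate.

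Expression was widespread within the pericyte gate. At P1, 131 of 146 cells (89.7%) had a Kcnj8 UMI and as many had an Abcc9 UMI, and at P7 the counts were 294 (94.5%) and 287 (92.3%) of 311. The median pericyte-gated cell had 12 Kcnj8 and 5 Abcc9 UMIs at P1 and 13 and 5 at P7, with highest values of 47 and 21 at P1 and 42 and 26 at P7. Both subunits were detected in 123 of 146 cells at P1 and 284 of 311 at P7, and neither in 7 and 14 cells. Those without either still had Rgs5, the regulator of G protein signalling that marks pericytes (3807 CPM at P1 and 5404 CPM at P7). This was less than in cells with either subunit (5364 and 9444 CPM). Their median depth was 13718 UMIs at P1 and 3877 at P7, against 8626 and 7604 in the others. At an equal depth of 2000 UMIs per cell (thinned at random, without 11 shallower cells at P1 and 13 at P7), 61.5% at P1 and 66.1% at P7 had both subunits, beside 55.6% and 63.5% as the product of the separate shares.

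Both subunits were far lower in Myh11-gated smooth muscle cells. Kcnj8 was at 30.0 CPM there at P1 (20.3 to 42.9; 30 UMIs) and 10.5 CPM at P7 (7.08 to 15; 30 UMIs). Abcc9 was at 12.0 CPM (6.21 to 21.0; 12 UMIs) and 12.2 CPM (8.52 to 17.0; 35 UMIs). The pericyte level was 45.0-fold that of the Myh11 gate for Kcnj8 at P1 (log2 ratio 5.47, 4.97 to 6.06) and 164-fold at P7 (7.34, 6.84 to 7.93). For Abcc9 it was 49.6-fold at P1 (log2 ratio 5.58, 4.82 to 6.59) and 62.8-fold at P7 (5.95, 5.49 to 6.5). Both members were thus past 2-fold higher in both libraries, as were 679 of the 9056 genes with enough UMIs (7.5%). At 32-fold the background was 21 genes (0.232%). Ordered by the smaller of their log2 ratios at P1 and P7, Abcc9 was at position 10 and Kcnj8 at position 13 of 9056, in the company of Cpa1, Steap4, Cygb and Ache and of the gate genes Colec11 and Vtn. With cells of several gates kept in each gate they met, the log2 ratios fell to 3.38 and 4.12 for Kcnj8 and to 3.02 and 3.28 for Abcc9.

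Within the Myh11 gate, with 30 UMIs in each library, Kcnj8 was past 2-fold higher at P1 (log2 ratio of P1 over P7 1.52, 0.74 to 2.30), as were 5.28% of 9790 genes, and Abcc9 was not (0.01, -1.11 to 0.95). The lung mesenchyme genes Hoxa5, Foxf1 and Tbx4 summed to 38.0 CPM in Myh11-gated cells at P1 and 4.2 CPM at P7. Without cells carrying a UMI of these genes the log2 ratio of P1 over P7 for Kcnj8 was 0.99 (17 and 28 UMIs), no longer past 2-fold, and it was 0.92 after thinning (4 and 7 UMIs) and 0.76 with cells of several gates kept. The P1 log2 ratio of pericyte over Myh11 gate was then 6.02 without the lung gene cells, in place of 5.47.

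Cells of both mural gates lay between these classes. Their Kcnj8 level was 225 CPM at P1 (185 to 271) and 157 CPM at P7 (137 to 179), and their Abcc9 level 125 CPM (95.6 to 160) and 124 CPM (106 to 144). This was 6.0-fold and 11-fold below the pericyte gate for Kcnj8 and 4.78-fold and 6.22-fold below for Abcc9. The same cells had 5293 and 7807 CPM of Rgs5 at P1 and P7, beside 5258 and 9309 CPM in the pericyte gate. Among pericyte-gated cells those with 1 or 2 Myh11 UMIs also had less Kcnj8 (1086 against 1400 CPM at P1, 720 against 1825 CPM at P7). Doublets were not called, and a droplet holding a pericyte and a smooth muscle cell would also meet both gates.

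**Figure D2:**
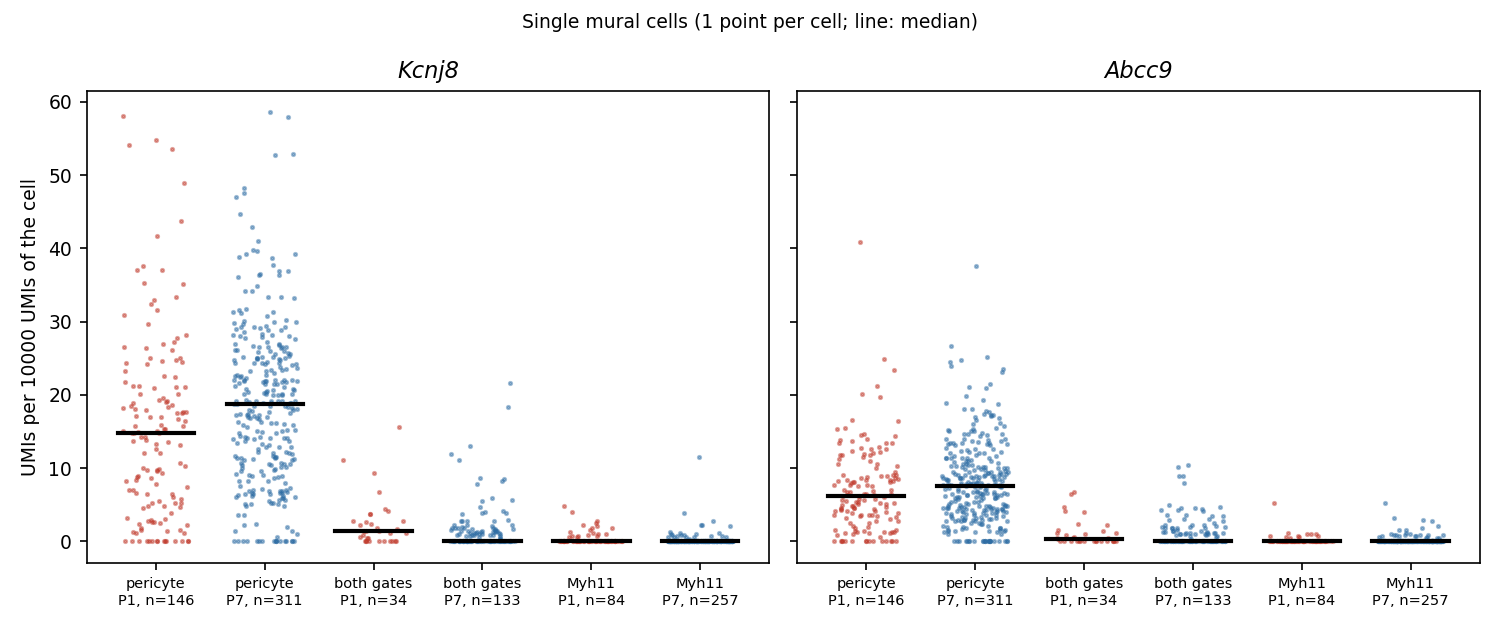
UMIs of Kcnj8 and Abcc9 per 10000 UMIs of each cell (1 point per cell, black line at the median) in the pericyte gate, both mural gates and the Myh11 gate. Median Kcnj8 was 14.8 at P1 and 18.7 at P7 in pericyte-gated cells and 0 in Myh11-gated cells at both ages, and in cells of both gates it was 1.35 at P1 and 0 at P7.

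Between the ages the subunits of pericyte-gated cells moved little. The log2 ratio of P1 over P7 was -0.35 for Kcnj8 (-0.43 to -0.27) and -0.37 for Abcc9 (-0.49 to -0.25), within 2-fold for both, where 5.53% of 10044 genes were past 2-fold in either direction. The median over all genes was -0.03. The small difference depended on the gate and the scaling. Among cells with all 3 gate genes the P1 and P7 levels were 1879 and 1886 CPM for Kcnj8 and 816 and 831 CPM for Abcc9. Cells with 2 of the 3 had 913 and 1059 CPM of Kcnj8 and made up 75 of 146 pericyte-gated cells at P1 but 66 of 311 at P7. Scaled to the summed UMIs of the 7 pericyte check markers, an alternative chosen after seeing the data, the direction turned, with log2 ratios of 0.22 for Kcnj8 and 0.21 for Abcc9. These markers summed to 10103 CPM at P1 and 15048 CPM at P7, led by Rgs5. Pericyte-gated cells with a UMI of Mki67, a proliferation marker, numbered 18 at P1 and 30 at P7. Their Kcnj8 CPM was lower at both ages (966 against 1454 CPM at P1, 1312 against 1786 CPM at P7). So was their Rgs5 CPM (3771 against 5655 CPM and 7397 against 9607 CPM). They were also deeper (median 13285 against 8322 UMIs at P1, 10651 against 7192 at P7). A Kcnj8 UMI was present in 88.9% and 100% of them, against 89.8% and 94.0% of the others.

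In fibroblasts both subunits were low and higher at P1. Kcnj8 in Pdgfra-gated cells was at 19.7 CPM at P1 (17.7 to 21.9; 347 UMIs) and 7.10 CPM at P7 (6.25 to 8.05; 247 UMIs), a log2 ratio of 1.47 (1.23 to 1.72). Abcc9 was at 16.4 CPM (14.6 to 18.4; 289 UMIs) and 5.87 CPM (5.09 to 6.73; 204 UMIs), a log2 ratio of 1.49 (1.22 to 1.75). Both were past 2-fold higher at P1, as were 6.47% of 13813 genes in this class. Against leukocytes, Abcc9 was past 2-fold higher in both libraries (log2 ratios 2.60 and 1.76), as were 23.5% of 12984 genes. For Kcnj8 the log2 ratio was 2.31 at P1 and 0.99 at P7 with 0.5 counts added to each sum. Without added counts Kcnj8 at P7 was 2.05-fold the leukocyte level. Pericyte markers summed to 288 CPM in Pdgfra-gated cells at P1 and 212 CPM at P7. Without the cells with an Rgs5 UMI the levels were 18.8 and 6.62 CPM for Kcnj8 and 17.6 and 5.32 CPM for Abcc9. The ratio of P1 over P7 was as large in cells without this marker. Pericyte RNA reaching Pdgfra-gated cells in proportion to Rgs5 would give 7.88 and 3.35 CPM of Kcnj8. For Abcc9 it would give 3.47 and 1.49 CPM. These scaled values are also higher at P1, and the measured levels were 2.51 and 2.12 times them for Kcnj8 and 4.73 and 3.93 times for Abcc9. The part of pericyte RNA in the levels and in their age difference was not tested.

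The fibroblast signal was uneven. Pdgfra-gated cells with a UMI of Gdf10, a BMP family ligand, had 35.6 CPM of Kcnj8 at P1 and 22.3 CPM at P7, against 16.1 and 5.74 CPM in cells without, and their Rgs5 was at 54.0 and 34.1 CPM against 25.2 and 16.6 CPM. Cells with a UMI of the valve-type gene Wif1, a secreted Wnt inhibitor, had 61.3 CPM (44 cells) and 35.2 CPM (37 cells), against 17.9 and 6.52 CPM. Those Wif1-positive cells also held more Rgs5 (87.1 and 54.9 CPM against 28.2 and 17.3 CPM), and the part of Rgs5-rich RNA in the Kcnj8 level of either subset was not tested. Fmod, also a valve-type gene, did not split the cells in this way at P1. Kcnj8 was at 20.9 CPM in Fmod-positive cells (122 cells) against 19.6 CPM, with overlapping intervals. At P7 it was at 26.4 CPM (96 cells) against 5.99 CPM. Rgs5 in Fmod-positive cells was at 75.9 and 29.0 CPM against 24.0 and 17.5 CPM. Cells with a UMI of Pi16, an adventitial-type gene, had less Kcnj8 (13.3 and 4.85 CPM) than those without (21.8 and 13.2 CPM). Pi16-positive cells made up 206 of 1018 Pdgfra-gated cells at P1 and 1348 of 1978 at P7. Within both groups Kcnj8 was higher at P1, but short of 2-fold in cells without a Pi16 UMI. The P1 excess was also short of 2-fold in Gdf10-positive and Wif1-positive cells. In Fmod-positive cells Kcnj8 was lower at P1 than at P7, with overlapping intervals. These subtype genes were chosen after the members' levels by class had been seen.

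In endothelial cells Abcc9 stood above the leukocyte level and Kcnj8 near it. Abcc9 in Cdh5-gated cells was at 13.3 CPM at P1 (11.7 to 15.1; 255 UMIs) and 20.6 CPM at P7 (18.9 to 22.3; 580 UMIs), while Kcnj8 was at 3.60 CPM (2.80 to 4.56) and 6.49 CPM (5.58 to 7.50). Leukocytes were taken as the background class for free RNA, although whether they lack both genes was not tested. They had 2.55 and 1.60 CPM of Abcc9 and 3.82 and 3.46 CPM of Kcnj8. Abcc9 was therefore 5.22-fold and 12.9-fold above the leukocyte level (log2 ratios 2.30, 1.38 to 3.61, and 3.57, 2.55 to 5.14), beside 18.1% of 12680 genes past 2-fold higher in both libraries. For Kcnj8 the log2 ratios were -0.13 (-0.98 to 0.94) and 0.85 (0.10 to 1.84). The P1 leukocyte level of Kcnj8 rests on 12 UMIs in 7 cells, 6 of them in 1 cell. Without Rgs5-positive cells it was 1.36 CPM (0.37 to 3.48; 4 UMIs), against 2.80 CPM (2.05 to 3.72) in the Cdh5 gate. At P7 these levels were 3.74 and 4.90 CPM. By share of cells, 10.6% and 12.4% of Cdh5-gated cells had an Abcc9 UMI against 2.16% and 1.31% of leukocytes, at median depths of 10807 and 7876 UMIs against 7715 and 6369. Thinned to 2000 UMIs per cell the Abcc9 shares were 2.51% and 4.01% against 0.324% and 0.475%. The Kcnj8 shares were 2.74% and 4.38% against 2.16% and 2.41% without thinning, and 0.644% and 1.22% against 1.62% and 0.713% with it. The thinned P1 values run in the other direction but rest on 10 of 1553 and 5 of 309 cells. Their intervals overlap (0.309% to 1.18% and 0.527% to 3.74%).

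Kcnj8 and Abcc9 UMIs came in much the same proportion at both ages in pericytes, and in another proportion in endothelium. Pericyte-gated cells had 2.27 Kcnj8 UMIs per Abcc9 UMI at P1 (2.09 to 2.46) and 2.24 at P7 (2.12 to 2.37). In the Pdgfra gate the ratio was 1.20 and 1.21, and in the Cdh5 gate 0.271 (0.204 to 0.354) and 0.316 (0.266 to 0.373). Such ratios compare classes, not amounts of protein, since capture can differ between genes. If pericyte RNA reached Cdh5-gated cells in proportion to Rgs5, it would give 1.88 and 4.4 CPM of Abcc9, and the measured level was 7.10 and 4.67 times that. For Kcnj8 the same scaling gave 4.25 and 9.85 CPM, and the measured level was 0.847 and 0.658 times that. In leukocytes the measured levels were 2.82 and 0.932 times the scaled value for Abcc9 and 1.87 and 0.901 times for Kcnj8. This scaling, also used above for the Pdgfra gate, takes all Rgs5 RNA to come from pericyte-gated cells. Myh11-gated cells also held Rgs5 (1518 and 2602 CPM), with far less of both members. The part of pericyte RNA in the Cdh5 gate was not tested. Without Rgs5-positive cells, Abcc9 in the Cdh5 gate was at 12.9 CPM at P1 and 19.8 CPM at P7.

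Endothelial Abcc9 was higher in cells with an arterial gene. Cdh5-gated cells with a UMI of Gja5, the gap junction protein of arterial endothelium, had 34.1 CPM of Abcc9 at P1 (22.5 to 49.6; 61 cells) and 78.4 CPM at P7 (65.4 to 93.1; 171 cells), against 12.4 CPM (10.9 to 14.1) and 17.0 CPM (15.4 to 18.6) in cells without. Kcnj8 in the Gja5-positive cells was at 3.79 and 9.12 CPM, and their Rgs5 level (16.4 and 28.6 CPM) was no higher than that of the other cells (16.6 and 54.8 CPM). Cells without a UMI of Aplnr, the apelin receptor of coronary capillaries, had 17.3 and 43.8 CPM of Abcc9, against 10.4 and 14.4 CPM in cells with one. Cells with a UMI of the capillary gene Car4 also had less (7.86 and 13.8 CPM) than those without (17.9 and 26.4 CPM). Cells with a UMI of Prox1, the lymphatic transcription factor, had 17.0 and 16.7 CPM of Abcc9 and 0 Kcnj8 UMIs in 67 and 70 cells. These counts of 0 allow up to 3.92 CPM of Kcnj8 at P1 and 3.86 CPM at P7 by the upper Poisson bound. Intervals of Npr3-positive (endocardial-type) and Npr3-negative cells overlapped at both ages. The P1 over P7 log2 ratios in the whole Cdh5 gate were -0.62 for Abcc9 (-0.84 to -0.41) and -0.84 for Kcnj8 (-1.27 to -0.44), neither past 2-fold, where 9.68% of 13456 genes were.

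**Figure D3:**
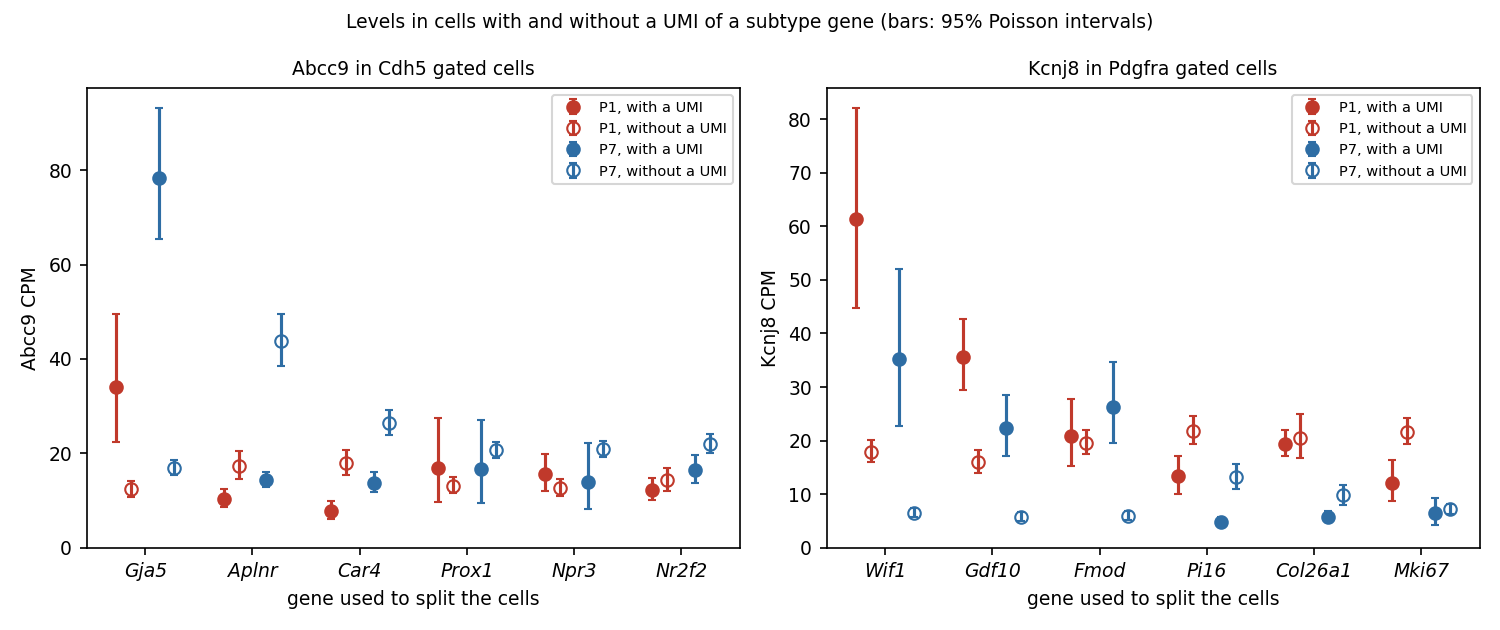
Abcc9 CPM in Cdh5-gated cells (left) and Kcnj8 CPM in Pdgfra-gated cells (right), each split by a UMI of the gene on the horizontal axis, with filled circles for cells with a UMI, open circles for cells without, and 95% Poisson intervals. Abcc9 reaches 34.1 CPM at P1 and 78.4 CPM at P7 in Gja5-positive cells, and Kcnj8 61.3 and 35.2 CPM in Wif1-positive cells.

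Cells of the Upk3b gate had Kcnj8 UMIs in both libraries and Abcc9 UMIs at P7 alone. Kcnj8 in Upk3b-gated cells was at 20.7 CPM at P1 (11.6 to 34.2; 15 UMIs in 4 of 48 cells) and 78.9 CPM at P7 (53.6 to 112; 31 UMIs in 13 of 27 cells), a P1 over P7 log2 ratio of -1.90 (-2.92 to -0.99), where 4.81% of 6763 genes were past 2-fold lower at P1. Rgs5 was at 4.15 and 10.2 CPM there, and the P7 level without Rgs5-positive cells was 76.3 CPM. Abcc9 had 0 UMIs in 48 cells at P1, which allows up to 4.15 CPM by a limit of 3 counts, and its 9 UMIs at P7 (22.9 CPM, 10.5 to 43.5) all came from 1 cell. After thinning, 4.17% and 7.41% of the cells had a Kcnj8 UMI. The lung mesenchyme genes summed to 158 and 43.3 CPM in this class, more than in any other gated class at either age. Whether the class holds cells from outside the heart was not tested. Without cells carrying a UMI of these genes the Kcnj8 log2 ratio was -0.33 (-1.47 to 0.77; 14 and 17 UMIs), no longer past 2-fold.

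**Figure D4:**
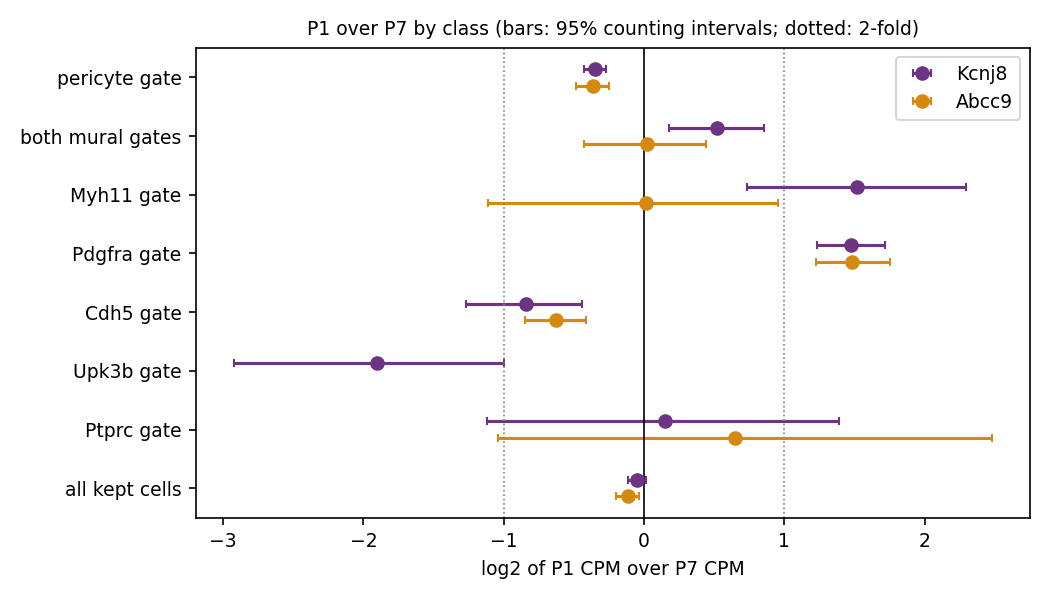
Log2 ratio of P1 over P7 for Kcnj8 (purple) and Abcc9 (orange) by class, with 95% counting intervals and dotted lines at 2-fold, and no value for Abcc9 in the Upk3b gate, where P1 had 0 UMIs. The ratios lie at -0.35 and -0.37 in the pericyte gate, at 1.47 and 1.49 in the Pdgfra gate, and near 0 over all kept cells (-0.05 and -0.12).

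Kcnj11 and Abcc8 were barely detected among the kept cells, of which few were myocyte-gated (109 at P1 and 19 at P7). The paper describes its cardiomyocyte cluster as underrepresented, through low survival and a cell size unsuited to the sort. Kcnj11 had 11 UMIs among all kept cells at P1 and 5 at P7, and Abcc8 had 13 and 4. Of the 11 Kcnj11 UMIs at P1, 8 lay in 6 of the 109 myocyte-gated cells (10.6 CPM, 4.56 to 20.8), and the others were spread 1 each over the Cdh5, Pdgfra and Ptprc gates. Of the 13 Abcc8 UMIs at P1, 5 lay in 4 myocyte-gated cells (6.60 CPM, 2.14 to 15.4), 3 in pericyte-gated cells and 2 in Myh11-gated cells. The others were spread 1 each over the cells of both mural gates, the Cdh5 gate and the ungated cells. At P7, 3 of the 5 Kcnj11 UMIs lay in Myh11-gated cells and 0 in myocyte-gated cells, and 2 of the 4 Abcc8 UMIs lay in myocyte-gated cells. In pericyte-gated cells Kcnj11 had 0 UMIs at both ages, which allows up to 2.10 CPM at P1 and 1.24 CPM at P7. Abcc9 in P1 myocyte-gated cells was at 9.23 CPM (3.71 to 19.0; 7 UMIs) and Kcnj8 at 7.91 CPM (2.90 to 17.2; 6 UMIs), beside 152 CPM of Rgs5 in the same cells. With no mitochondrial limit the Abcc9 level there was 18.6 CPM (17 UMIs in 123 cells). The 19 myocyte-gated cells at P7 had 66587 UMIs in all, so that 0 UMIs of Kcnj11 or Abcc9 allows up to 45.1 CPM. At P1, 5 of the 109 cells had more Myl7 (the atrial light chain) than Myl2 (the ventricular one). These 5 held 2 Kcnj11 and 3 Abcc8 UMIs in 2 cells, with 0 of Kcnj8 and Abcc9. A count of 0 in these 5 cells allows up to 68.7 CPM by the upper Poisson bound. The 104 others held 6 Kcnj11, 2 Abcc8, 7 Abcc9 (9.94 CPM) and 6 Kcnj8 UMIs (8.52 CPM). Those Abcc9 and Kcnj8 levels lie below the bound, so the counts of 0 do not show that the 5 cells lack either gene.

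Ungated cells held 12.5% and 4.27% of Kcnj8 UMIs and 13.0% and 4.91% of Abcc9 UMIs at P1 and P7. Part of this sat in a small number of cells. At P1, 61 ungated cells had both subunits and 213 of the 409 ungated Kcnj8 UMIs, and 31 at P7 had 70 of 239. These cells were picked by the members' own UMIs, so a raised share follows from the choice. They were also deeper than the other ungated cells (median 13079 against 5191.5 UMIs at P1, 15398 against 8287 at P7). An Rgs5 UMI was present in 50.8% and 45.2% of the cells with both subunits, against 20.0% and 21.8% of the other ungated cells. The gates leave these cells unnamed.

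The next genes along both chromosomes were compared for context. Ldhb, a lactate dehydrogenase subunit gene and the neighbour downstream of Kcnj8, was also higher in pericyte-gated cells than in all other kept cells, at 299 against 113 CPM at P1 and 382 against 55.4 CPM at P7. Cmas, upstream of Abcc9, was at 63.7 against 61.2 CPM and 79.0 against 67.4 CPM. St8sia1, further upstream, was low but also higher in pericyte-gated cells. It was at 7.00 against 0.538 CPM at P1 (10 UMIs) and 7.00 against 0.853 CPM at P7 (17 UMIs). Gys2, beyond Ldhb, had 0 UMIs in both libraries. On chromosome 7, Nomo1, downstream of Kcnj11, was at 15.4 against 18.7 CPM at P1 and 16.1 against 19.3 CPM at P7. Ush1c, upstream of Abcc8, had 1 and 0 UMIs in pericyte-gated cells.

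Genes whose levels over the 16 class profiles (8 classes in each library) most resembled the members were then listed from 12521 genes by Pearson r of log2(CPM + 1), as a description, since the profiles share libraries and gates. For Kcnj8 these were Lin7a (0.94), Phox2a (0.91), Steap4 (0.89), the gate genes Vtn (0.87) and Colec11 (0.86), Rerg (0.85), Lrrtm3 (0.83), Ache (0.82), Dtx3 (0.80) and Scn3a (0.79). Abcc9 came at position 13 of this order (0.79). For Abcc9 they were Ache (0.88), Clec4g (0.88), Ggt5 (0.87), Phox2a (0.87), Gm20721 (0.87), Stc1 (0.86), Raph1 (0.85), Cpa1 (0.85), Lrrtm3 (0.84) and Akr1c19 (0.84), with Kcnj8 at position 32. Ache, Phox2a and Lrrtm3 were in both lists. Steap4, an iron and copper reductase, was at 242 and 471 CPM in pericyte-gated cells, and Phox2a, a homeodomain factor known from autonomic neurons, at 53.9 and 54.8 CPM.

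Other inward rectifiers had 0 to 3 UMIs per library in pericyte-gated cells. Of 13 such Kcnj genes, none had the 20 summed UMIs per library needed for comparing the mural classes. Kcnj2 (Kir2.1, the strong inward rectifier of arteries and myocytes) had 0 and 2 UMIs in pericyte-gated cells and 3 and 24 in Myh11-gated cells, and Kcnj12 (Kir2.2) had 0 and 0 against 2 and 25. Among 9 other transporters of the ABCC family, Abcc1 and Abcc5 were measured and neither was past 2-fold in both libraries. Of 19 other vascular potassium channel genes 8 were measured, 2 higher and 4 lower in pericyte-gated cells in both libraries, beside 7.5% of all genes higher and 6.01% lower. Kcne4, an accessory subunit, was higher (45.5 against 9.01 CPM at P1, 42.0 against 12.2 CPM at P7), as was Kcnk2 (TREK1), which has fewer UMIs. Kcnab1 (5.60 against 176 and 7.82 against 266 CPM), the voltage-gated Kcna5 (35 against 137 and 10.7 against 94.8 CPM) and Kcnmb1, the beta subunit of the BK channel (15.4 against 53.0 and 24.7 against 115 CPM) were among those lower. The median log2 ratio of the 8 was -1.45 at P1 and -1.02 at P7, against 0.16 and 0.26 over all 9056 genes.

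Receptor genes of vasoactive signals went both ways. A list of 15 genes of receptors and receptor partners known mainly for raising cAMP (Adora1 in it lowers cAMP) had 7 measured genes, 3 higher (Ramp2, Ptgir and Adora2a) and 1 lower (Ramp1) in pericyte-gated cells, beside the same 7.5% and 6.01% of all genes. The receptor partner Ramp2 was at 141 against 20.0 CPM at P1 and 76.6 against 28.7 CPM at P7, and Ramp1, which makes the CGRP receptor, at 20.3 against 572 CPM and 3.29 against 586 CPM. The prostacyclin receptor gene Ptgir was lower at P1 within the pericyte gate (16.1 and 35 CPM, log2 ratio -1.10). Of 15 genes of other vasoactive receptors, many of which act through protein kinase C while P2ry14 and Npy1r mainly lower cAMP, 8 were measured, 4 higher and 3 lower. The angiotensin receptor gene Agtr1a (45.5 against 1.00 and 28.0 against 1.75 CPM), P2ry14 (106 against 44.0 and 176 against 11.5 CPM) and S1pr3 (182 against 75.1 and 223 against 96.9 CPM) were higher. The neuropeptide Y receptor gene Npy1r (5.60 against 60.0 and 3.29 against 89.2 CPM) and the thromboxane receptor gene Tbxa2r (22.4 against 63.0 and 13.6 against 45.1 CPM) were lower.

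Between the ages within the pericyte gate, 2.9% of all 10044 genes were past 2-fold higher at P1 and 2.63% lower, while of the 79 measured genes of all lists 5 were higher at P1, among them Kcna5, Ramp1, Entpd1 and Adk, and 3 lower, among them Ptgir and Avpr1a. The remaining lists were compared between pericyte-gated and Myh11-gated cells. Of all 9056 genes there, 7.5% were past 2-fold higher and 6.01% lower in pericyte-gated cells in both libraries. Of 19 calcium and depolarising channel genes 16 were measured, with Itpr2 higher and 3 lower (Cacna1c, Cacna1h and Cacnb2). Of 19 kinase and adenylate cyclase genes 17 were measured, with Prkacb, a catalytic subunit of protein kinase A, higher (269 against 96.1 and 338 against 105 CPM) and Adcy5, Prkcd and Adcy9 lower. Of 7 gap junction genes 2 were measured, and Gja4 was lower (183 against 383 and 218 against 523 CPM). Of 14 genes of adenine nucleotide handling 9 were measured, with the nucleoside transporter Slc29a1 higher and Ckb, Ak1 and Entpd1 lower. Within the pericyte gate the adenosine kinase gene Adk was higher at P1 than at P7 (45.5 and 19.8 CPM). Of 11 genes of channel trafficking all were measured, with the ankyrin gene Ank2 higher (83.3 against 27.0 and 73.7 against 8.04 CPM) and the caveolar genes Cav1, Cav2, Cav3 and Cavin1 lower.

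**Figure D5:**
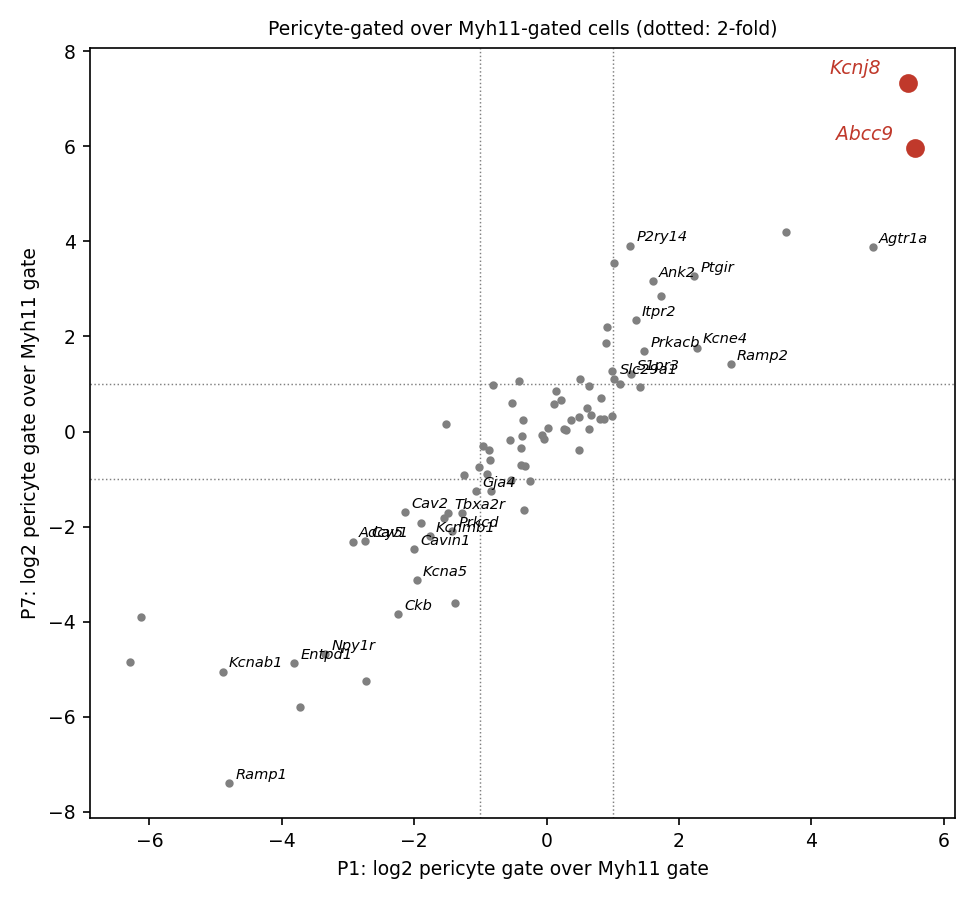
Log2 ratio of pericyte-gated over Myh11-gated cells at P1 (horizontal) and P7 (vertical) for the measured genes of the lists (grey) and for Kcnj8 and Abcc9 (red), with dotted lines at 2-fold. Kcnj8 (5.47 and 7.34) and Abcc9 (5.58 and 5.95) lie above the genes of the lists on both axes, and Ramp1 (-4.80 and -7.39) is the lowest of the list genes at P7.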

How the data were processed

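Single-cell RNA-seq of P1 and P7 hearts was deposited by the authors as UMI counts per gene and cell barcode, made with Cell Ranger 3.1.0 on mm10 (GRCm38). The deposited counts are raw and hold barcodes from before the study's own cell filters. Kept cells were gated as the report describes, and cells meeting several gates were held apart, with no doublet caller run and no correction for free RNA. The pericyte gate used Colec11, Vtn and Higd1b, and the myocyte gate a Tnnt2 level of at least 1000 CPM with at least 5 UMIs.

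UMIs were summed per class and library and given as CPM, with exact Poisson intervals. Shares of cells have exact Clopper-Pearson intervals. Ratios have conditional binomial intervals, and log2 ratios add 0.5 counts to each sum. These 95% intervals cover counting error only. A gene was measured when both sums held at least 20 UMIs together, in each library for ratios between classes, and was called higher or lower past 2-fold. Where a limit is given for a count of 0, it is 3 counts. The plot of levels by class, the Prox1-positive cells and the myocyte-gated cells with more Myl7 than Myl2 instead have the upper 95% Poisson bound. Genes named from lists had at least 50 UMIs in the higher sum and were the 3 furthest in each direction; Kcnk2, Adora2a, Avpr1a, Ramp1 and Entpd1 as P1 differences, Cacna1c, Cacna1h, Cacnb2, Adcy9, Ak1 and Cav3 were named after their values were seen. The 10 genes with the highest Pearson r to Kcnj8 and to Abcc9 were named too. Some genes and 1 gated class are not reported here. The members, gates and lists were chosen with earlier results of these data known. Alternatives covered the mitochondrial and gene limits, the gates, thinning and scaling. The interval scripts were tested on simulated data. Python 3.11.15, numpy 2.4.6, scipy 1.17.1 and pandas 2.3.3 were used.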

Additional observations from a re-analysis of the deposited data

Results flagged for a closer look

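The P1 over P7 log2 ratios of the members pointed in different directions in different classes. For Kcnj8 the ratio was 1.52 in Myh11-gated and 1.47 in Pdgfra-gated cells, but -0.35 in pericyte-gated, -0.84 in Cdh5-gated and -1.90 in Upk3b-gated cells. For Abcc9 it was 1.49 in Pdgfra-gated cells, -0.37 in pericyte-gated and -0.62 in Cdh5-gated cells. Without cells carrying a UMI of the lung mesenchyme genes Hoxa5, Foxf1 or Tbx4, the Kcnj8 ratio was 0.99 in Myh11-gated and -0.33 in Upk3b-gated cells, so neither was past 2-fold. With 1 library per age these differences between classes were not tested.

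Cells left out for their mitochondrial share also held member UMIs. At P1, 592 such barcodes had 39 Kcnj8, 58 Abcc9, 4 Kcnj11 and 5 Abcc8 UMIs. At P7, 405 such barcodes had 22 Kcnj8 and 27 Abcc9 UMIs. The 17 Tnnt2-rich barcodes among those at P1 held 11 of the Abcc9, all 4 of the Kcnj11, 3 of the Abcc8 and 1 of the Kcnj8 UMIs.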

How the results depend on the processing

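No paired analysis was possible because each age had 1 library. The 10 ratios and shares of Kcnj8 and Abcc9 UMIs in pericyte-gated cells were recomputed under 14 alternatives for P1 over P7, 13 for pericyte over Myh11 and 10 for the shares, and 81 of the 120 values stayed within the counting interval of the reported one. In the 13 alternatives run for them the pericyte over Myh11 ratios kept their direction and stayed past 2-fold, from 3.38 to 6.02 and 4.12 to 7.53 for Kcnj8 and from 3.02 to 5.77 and 3.28 to 5.98 for Abcc9 at P1 and P7.

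With all 3 pericyte genes required, the log2 ratio of P1 over P7 was -0.0050 for Kcnj8 and -0.025 for Abcc9, the pericyte over Myh11 ratio was 6.34 for Kcnj8 at P7 and 4.43 and 5.23 for Abcc9 at P1 and P7, and the pericyte shares at P1 and P7 were 37.2% and 65.6% for Kcnj8 and 27.7% and 47.3% for Abcc9. The stricter gate moves cells with 2 of the 3 genes to other classes. With cells of several gates kept in each, P1 over P7 was 0.019 for Kcnj8 and -0.10 for Abcc9, pericyte over Myh11 was 3.38 and 4.12 for Kcnj8 and 3.02 and 3.28 for Abcc9, and the shares were 71.3% and 86.2% for Kcnj8 and 55.2% and 69.0% for Abcc9. Both classes then hold the same double-gated cells. Thinned to 2000 UMIs, P1 over P7 was -0.24 for Kcnj8 and -0.18 for Abcc9, and the shares were 65.2% and 83.9% for Kcnj8 and 52.5% and 60.5% for Abcc9. With at most 5000 genes per cell the shares were 64.7% and 79.4% for Kcnj8 and 50.1% and 60.5% for Abcc9. With a Myh11 gate of 1 UMI they were 51.6% and 71.8% for Kcnj8 and 39.2% and 51.6% for Abcc9. With a Myh11 gate of 6 UMIs, P1 over P7 was -0.25 for Kcnj8, and the P7 shares were 76.8% for Kcnj8 and 57.0% for Abcc9. The mean of per-cell CPM gave -0.19 for Abcc9. Scaling to the 7 pericyte markers, chosen after seeing the data, gave 0.22 for Kcnj8 and 0.21 for Abcc9. The cause of these moves was not tested beyond what the alternatives' own construction shows. Removing cells with a UMI of Hoxa5, Foxf1 or Tbx4, or barcodes found in both libraries, moved none of the 10 values beyond its interval.

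P1 over P7 in other classes was recomputed under 13 of these alternatives, an addition made after seeing the data. Both members stayed past 2-fold higher at P1 in Pdgfra-gated cells in all 13 (1.33 to 1.54 for Kcnj8, 1.18 to 2.04 for Abcc9). Kcnj8 stayed so in 10 of 13 in Myh11-gated cells (0.76 to 1.54), and lower in 11 of 13 in Upk3b-gated cells (-1.91 to -0.33; -0.34 when thinned, from 3 and 2 UMIs). In Cdh5-gated cells Kcnj8 (-1.29 to -0.21) was past 2-fold lower with a Myh11 gate of 1 UMI alone, and Abcc9 (-0.73 to -0.58) in none. None of the 13 alternatives split the Pdgfra-gated cells by a fibroblast subtype gene.

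Of 72 recomputed single levels and shares of cells, 45 stayed within their interval and 27 did not. Depth limits Kcnj11 and Abcc8, whose counts do not allow comparison between classes or ages, and the P7 myocyte gate with its 19 cells.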
